A study of Mus musculus with 8 samples.

Results

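Growth factor receptor tyrosine kinases are single-pass membrane proteins, most of which pair up when a ligand binds. The partners phosphorylate one another, and these receptors pass the signal through RAS and ERK and through PI3K and AKT. In regenerating muscle they are best known for receiving the hepatocyte, fibroblast, epidermal and insulin-like growth factors released by damaged tissue. These factors drive activated muscle stem cells (ASCs) into the cell cycle. Transcripts of 10 such receptors were examined, namely Met, Fgfr1, Fgfr2, Fgfr4, Egfr, Erbb2, Erbb3, Igf1r, Insr and Epha2. They were chosen by gene symbol, with earlier results of these data known. All 10 were found among the 18877 genes of the table of normalized read counts.

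The study asked what the loss of Mfn2, which encodes a mitochondrial outer membrane protein for mitochondrial fusion, does to ASCs. Mice carried a Pax7-CreERT2 driver, which recombines only in cells that express Pax7, and a mito-Dendra2 reporter, and the mfn2-/- mice had a floxed Mfn2 allele in addition. All received tamoxifen at 75 mg/kg on 5 days, then 50 uL of 1.2% BaCl2 into the tibialis anterior 2 days later, and live CD34-, Dendra2+ cells were sorted 2 days post injury. RNA of 4 wild-type and 4 mfn2-/- samples was sequenced, with no statement in the labels that each came from a separate animal, and no strain, age or sex given, so p-values measure the spread between these libraries.

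Libraries held 1880464 to 7508215 reads over genes, and mfn2-/- replicate 4 detected the fewest genes, 9646. The targeted gene Mfn2 read 202 to 245 normalized counts in wild-type libraries and 104 to 172 in mfn2-/- libraries, without overlap but with a limma adjusted p of 0.0848. Y-linked reads were counted in wild-type replicates 3 and 4 and in mfn2-/- replicates 1 and 2 and were 0 in the other 4 libraries. In both groups these reads therefore coincide with a pair of replicates, and the 2 cannot be told apart. Markers of other cell types differed widely between the groups. The 14 fibroadipogenic markers summed to 202321 to 260340 normalized counts in wild-type and 5303 to 9900 in mfn2-/- libraries, and the 9 tenocyte markers to 38669 to 60889 and 306 to 415. The 12 muscle stem cell markers summed to 12686 to 17732 in wild-type and 30394 to 43273 in mfn2-/- libraries. Sdc4 (4271 ± 1529 and 17473 ± 3953 normalized counts, SD, n = 4) and Des (2156 ± 888 and 7969 ± 2942) made up nearly all of this difference, and the sums of the other 10 overlapped, at 8319 to 9340 and 8556 to 11023. Opposite changes lay within these 10. Myod1 rose from 172 ± 56.6 to 828 ± 110 (limma adjusted p = 0.000146) and Vcam1 from 1380 ± 148 to 3194 ± 280 (0.00052). Cd34 fell from 1643 ± 260 to 454 ± 164 (limma adjusted p = 0.000242). The median log2 change of the 12 was 0.09, and 7 of the 12 were not called, Pax7 among them (log2 change 0.10, limma adjusted p = 0.78). In bulk RNA, fewer cells of a type and less RNA per cell cannot be told apart.

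Of the 10 receptors, 1 passed the test as lower and 1 as higher in mfn2-/- ASCs. Fgfr2 was nearly lost, and Epha2 was 2.20-fold higher. A call means an adjusted p under 0.05 in limma on log2(normalized count + 1), and over the 11754 genes tested 10.4% were called, 3.99% as higher and 6.36% as lower. Fgfr2 and Erbb3 were the 2 receptors whose groups did not overlap, against 19.5% of all genes tested. The median log2 change of the receptors was 0.17, with 6 positive and 4 negative, beside -0.16 for all genes tested. All 10 passed the filter of a mean of at least 10 normalized counts, but Fgfr2 and Erbb3 did so only through the wild-type group, where they were the more abundant.

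**Figure D1:**
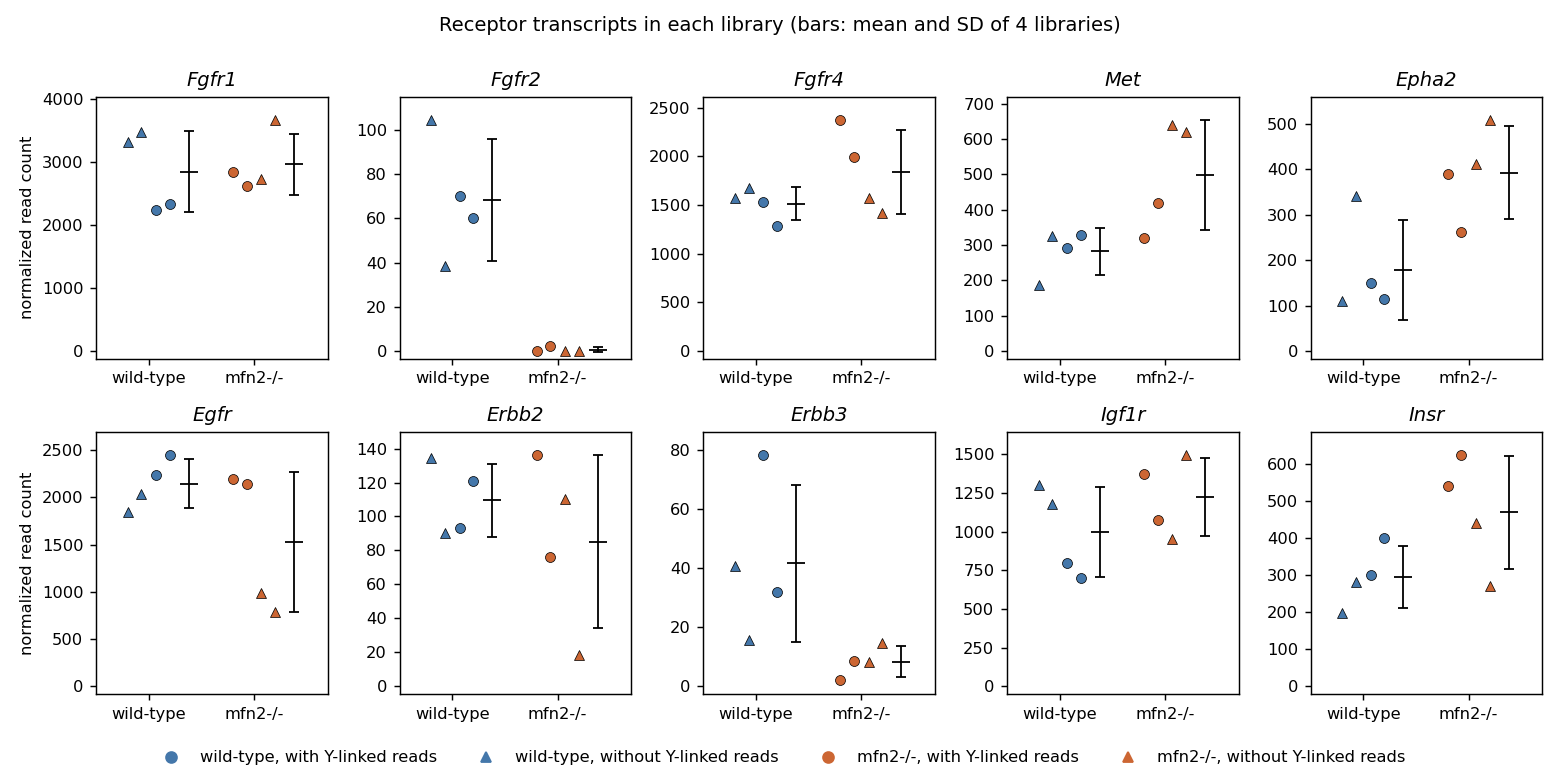
Normalized read count (linear vertical axis from 0) of each receptor in each of the 8 libraries, with the mean and SD of 4 libraries per group beside the points; circles are libraries with Y-linked reads and triangles those without. Fgfr2 and Erbb3 are the panels in which the groups do not overlap, and in the Egfr panel mfn2-/- replicates 3 and 4 lie below all other libraries.

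The FGF receptors bind fibroblast growth factors together with heparan sulfate and hold myogenic cells in a proliferating state. Fgfr1, the main receptor for FGF2 in muscle stem cells, read 3325, 3478, 2248 and 2335 normalized counts in wild-type replicates 1 to 4 and 2842, 2615, 2727 and 3676 in mfn2-/- replicates 1 to 4. The mfn2-/- values lay within or just above the wild-type range. The log2 change was 0.07 (SE 0.20, 95% interval -0.36 to 0.51) and did not pass (limma adjusted p = 0.856, exact permutation p = 0.771). Fgfr4, a receptor characteristic of the myogenic lineage, read 1571, 1679, 1526 and 1283 in wild-type and 2376, 1996, 1573 and 1415 in mfn2-/- libraries. Both mfn2-/- libraries with Y-linked reads were above every wild-type library, and the other two were within the wild-type range. Its log2 change was 0.26 (SE 0.20, 95% interval -0.17 to 0.69; limma adjusted p = 0.459). The log2 ratio of Fgfr4 to Fgfr1 counts was -0.89 ± 0.24 (SD, n = 4) in wild-type and -0.70 ± 0.50 (SD, n = 4) in mfn2-/- ASCs. This difference was within the spread by the exact permutation test (p = 0.543).

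Fgfr2, whose splice forms serve epithelial and mesenchymal cells, stood apart from these 2 relatives. It read 105, 38.4, 70.2 and 60.4 normalized counts in wild-type replicates 1 to 4. In mfn2-/- libraries it was 0 in replicates 1, 3 and 4 and 2.37 in replicate 2. In reads, the wild-type libraries held 282, with at least 37 in each, and the mfn2-/- libraries held 3 in all. Per depth this was a ratio of 97.5 with an exact 95% interval of 33.0 to 476, which covers counting error only. The fitted log2 change was -5.59 (SE 1.06, limma adjusted p = 0.00494), but its size depends on the pseudocount, being -8.17 with 0.1 and -2.83 with 10 in place of 1. Fgfr2 had passed the filter on low values only through the wild-type group, and a filter at a mean of at least 50 dropped it. It passed in the 19 alternative analyses that could test it, with adjusted p between 5.53e-07 and 0.0232. These draw on the same libraries and are not separate evidence. Its exact permutation p of 0.0286 is the smallest that 4 against 4 libraries allow. The summed fibroadipogenic and tenocyte markers were likewise lower in every mfn2-/- library than in any wild-type library, and their part in the result was not tested.

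Epha2 is an ephrin-A receptor that growth factor signaling through ERK can induce. It read 109, 341, 149 and 114 normalized counts in wild-type replicates 1 to 4. In mfn2-/- replicates 1 to 4 it read 389, 262, 412 and 509. Wild-type replicate 2 lay above mfn2-/- replicate 2, while the remaining wild-type libraries lay below all mfn2-/- libraries. The means were 179 ± 110 (SD, n = 4) and 393 ± 102 (SD, n = 4), with a log2 change of 1.26 (SE 0.37, 95% interval 0.46 to 2.06) and a limma adjusted p of 0.0468. The change was 1.28 among libraries with Y-linked reads and 1.24 among those without. The call was close to the threshold: the exact permutation p was 0.0571, and 9 of 20 alternative analyses kept it (adjusted p 0.003 to 0.146). Leaving out 1 library kept the call without wild-type replicate 2 (0.00803) or mfn2-/- replicate 2 (0.049) and ended it without wild-type replicate 1 (0.107), 3 (0.107) or 4 (0.124) or mfn2-/- replicate 1 (0.098), 3 (0.112) or 4 (0.0827), with log2 changes of 1.08 to 1.63.

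Promoter sequences of the 2 called receptors are given because their transcripts moved in opposite directions. They are the 250 bases before and 50 after the RefSeq start site, written 5′ to 3′ on the gene's strand in build GRCm38.p6, whereas the counts were made on build mm9. The capitals mark the motif matches described after them.
Fgfr2, chr7:130266759-130267058, minus strand: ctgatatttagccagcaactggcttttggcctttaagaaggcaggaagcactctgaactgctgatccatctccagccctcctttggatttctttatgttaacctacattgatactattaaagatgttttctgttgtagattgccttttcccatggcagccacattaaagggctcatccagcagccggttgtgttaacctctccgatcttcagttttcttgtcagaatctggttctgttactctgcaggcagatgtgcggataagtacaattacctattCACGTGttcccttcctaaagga
Epha2, chr4:141300971-141301270, plus strand: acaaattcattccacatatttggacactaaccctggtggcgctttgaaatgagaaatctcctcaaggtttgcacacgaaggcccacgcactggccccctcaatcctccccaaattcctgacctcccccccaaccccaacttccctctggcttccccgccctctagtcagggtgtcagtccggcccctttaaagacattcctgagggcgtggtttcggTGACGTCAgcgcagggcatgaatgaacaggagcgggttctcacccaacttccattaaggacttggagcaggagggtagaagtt

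Both strands were searched for ACGTG, the core of the hypoxia response element bound by HIF1, the factor the study follows. It lay in 19.6% of 32851 promoters of the same length and in 3 of the 7 receptors with a RefSeq promoter (Met, Fgfr2 and Fgfr4, but not Egfr, Erbb2, Igf1r or Epha2). In Fgfr2 it stood as CACGTG, which holds the core on both strands in overlap, at base 29 counted from the start site, inside the transcript that begins there. The annotated Fgfr2 gene spans 130162451 to 133123350 on the minus strand and so reaches further upstream than this start site. The AP-1 site TGANTCA, bound by FOS and JUN proteins, lay in 7.81% of promoters and, of the 7, in that of Met. The cyclic AMP response element TGACGTCA, looked for only after the Epha2 sequence had been read, lay 33 bases before the Epha2 start site and in 1.79% of all promoters. Promoters of Fgfr1, Erbb3 and Insr were not analysed here. These matches describe letters and not binding.

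Met, the receptor for hepatocyte growth factor and an early signal of muscle stem cell activation, did not pass the test. It read 186, 325, 291 and 330 normalized counts in wild-type and 319, 420, 639 and 619 in mfn2-/- libraries. Only mfn2-/- replicate 1 lay within the wild-type range, just under its top. The means were 283 ± 66.5 (SD, n = 4) and 499 ± 156 (SD, n = 4). The log2 change was 0.80 (SE 0.29, 95% interval 0.17 to 1.42), the limma adjusted p 0.105 and the exact permutation p 0.0857. The change was 0.24 among libraries with Y-linked reads and 1.35 among those without, although the test of that difference gave a limma adjusted p of 0.353. None of 20 alternative analyses brought Met past the threshold (adjusted p 0.0604 to 0.243).

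None of the 3 EGF receptor family members passed the test, and each had a lower mean in mfn2-/- ASCs. Egfr, which binds EGF, HB-EGF and amphiregulin, read 1844, 2040, 2241 and 2447 normalized counts in wild-type libraries. It read 2198 and 2140 in mfn2-/- replicates 1 and 2, inside the wild-type range, and 990 and 782 in mfn2-/- replicates 3 and 4, far below it. Across all libraries the log2 change was -0.62 (SE 0.31, 95% interval -1.28 to 0.03; limma adjusted p = 0.226). It was -0.11 among libraries with Y-linked reads and -1.14 among those without, a difference of 1.03 (SE 0.23) whose limma adjusted p was 0.0633, where 1.47% of all genes tested passed such a test. The low replicates 3 and 4 also had the lower fibroadipogenic marker sums of their group, at most 5768 against at least 9726 in replicates 1 and 2. Their tenocyte, endothelial, mural and glial marker sums were lower as well, and their muscle stem cell and macrophage sums were higher. The split is therefore not particular to fibroadipogenic markers. In wild-type libraries the fibroadipogenic sums were 202321 to 260340 and Egfr was 1844 to 2447. The part of any of these cell types in the Egfr result was not tested.

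Erbb2, the ligandless partner of the family, read 134, 90.2, 93.1 and 121 normalized counts in wild-type and 136, 75.8, 111 and 18.3 in mfn2-/- libraries. The single low value was that of mfn2-/- replicate 4, a shallow library, and rested on 10 reads. The log2 change of -0.66 (SE 0.60, 95% interval -1.96 to 0.64; limma adjusted p = 0.538) moved to -0.05 without that library. Erbb3, which binds neuregulins and signals through its partners because its own kinase is weak, read 40.9, 15.6, 78.4 and 32.1 in wild-type and 2.00, 8.69, 8.11 and 14.7 in mfn2-/- libraries. Every mfn2-/- value was below every wild-type value, by a narrow margin between 15.6 and 14.7. The wild-type mean of 41.7 ± 26.6 (SD, n = 4) was 4.99-fold the mfn2-/- mean of 8.36 ± 5.17 (SD, n = 4). The exact permutation p was 0.0286, the smallest possible, but the limma adjusted p over all genes was 0.200, and the mfn2-/- values rested on 3 to 11 reads each. Erbb3 is also a glial marker, and the 9 glial markers summed to 798 to 1097 in wild-type and 290 to 599 in mfn2-/- libraries, whose part in the result was not tested.

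The insulin and IGF receptors, which bind insulin, IGF-1 and IGF-2 and feed the PI3K and AKT branch that drives muscle growth, had higher means in mfn2-/- ASCs without passing the test. Igf1r read 1303, 1177, 799 and 703 normalized counts in wild-type and 1372, 1074, 953 and 1493 in mfn2-/- libraries. The groups overlapped, and the low wild-type values were those of replicates 3 and 4. The log2 change was 0.32 (SE 0.24, 95% interval -0.19 to 0.83; limma adjusted p = 0.437). Insr read 198, 282, 301 and 401 in wild-type and 541, 623, 441 and 269 in mfn2-/- libraries. Insr was above the wild-type range in mfn2-/- replicates 1 to 3 and inside it in replicate 4. The log2 change of Insr was 0.64 (SE 0.30, 95% interval -0.01 to 1.30; limma adjusted p = 0.211), and leaving out mfn2-/- replicate 4 raised it to 0.88 (adjusted p = 0.05, not called). The log2 ratio of Insr to Igf1r counts was -1.75 ± 0.82 (SD, n = 4) in wild-type and -1.43 ± 0.73 (SD, n = 4) in mfn2-/- ASCs (exact permutation p = 0.571).

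**Figure D2:**
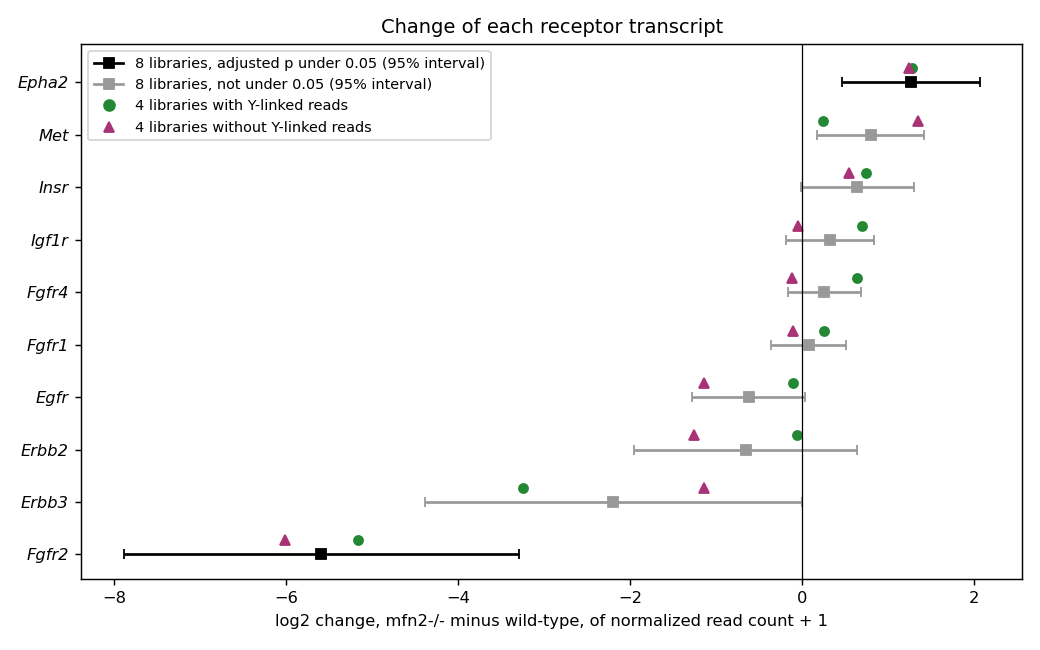
Log2 change (mfn2-/- minus wild-type, of normalized count + 1) of each receptor, with squares and 95% intervals from all 8 libraries, circles for the 4 libraries with Y-linked reads and triangles for the 4 without. Epha2 and Fgfr2 (black) passed the test, and the 2 subsets lie on opposite sides of 0 for Fgfr1, Fgfr4 and Igf1r.

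The change in libraries with Y-linked reads was the higher of the 2 subsets for 8 receptors and the lower for Met and Erbb3. For Fgfr1, Fgfr4 and Igf1r it was 0.25, 0.64 and 0.70 with Y-linked reads and -0.10, -0.12 and -0.05 without. For none of the 10 did the difference between the subsets pass the test, the limma adjusted p running from 0.0633 for Egfr to 0.986 for Epha2.

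Levels were compared between receptors as normalized reads per kb of annotated exon. Fgfr4 was the most abundant receptor transcript in wild-type ASCs at 428 ± 47.2 reads per kb (SD, n = 4), followed by Fgfr1 at 288 ± 65.3 and Egfr at 189 ± 22.9, and the ranges of these neighbours did not overlap. Igf1r (59.3 ± 17.3), Epha2 (38.2 ± 23.5) and Met (36.8 ± 8.66) formed a middle group whose ranges overlapped. Insr (21.5 ± 6.06) and Erbb2 (21.0 ± 4.11) came next and did not differ beyond their spread, and neither did Erbb3 (6.94 ± 4.42) and Fgfr2 (6.62 ± 2.67) at the bottom. In mfn2-/- ASCs the same 3 receptors had the highest means, with Fgfr4 at 519 ± 122 reads per kb, Fgfr1 at 300 ± 48.9 and Egfr at 135 ± 65.8. The ranges of Fgfr4 and Fgfr1, and of Fgfr1 and Egfr, again did not overlap. Egfr, however, ranged from 69.1 to 194 and overlapped Epha2, Igf1r and Met, and it was below Epha2 in mfn2-/- replicates 3 (87.4 against 88.1) and 4 (69.1 against 109). Epha2 at 84.1 ± 21.8 stood above Igf1r at 72.9 ± 15.0 and Met at 65.0 ± 20.3, though the ranges of all 3 overlapped. The lengths are unions over transcript forms, so a receptor with many forms is understated. Levels are those of whole sorted samples, whose fibroadipogenic and tenocyte marker sums differed widely between the groups. The part of such cells in the ranking was not tested.

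**Figure D3:**
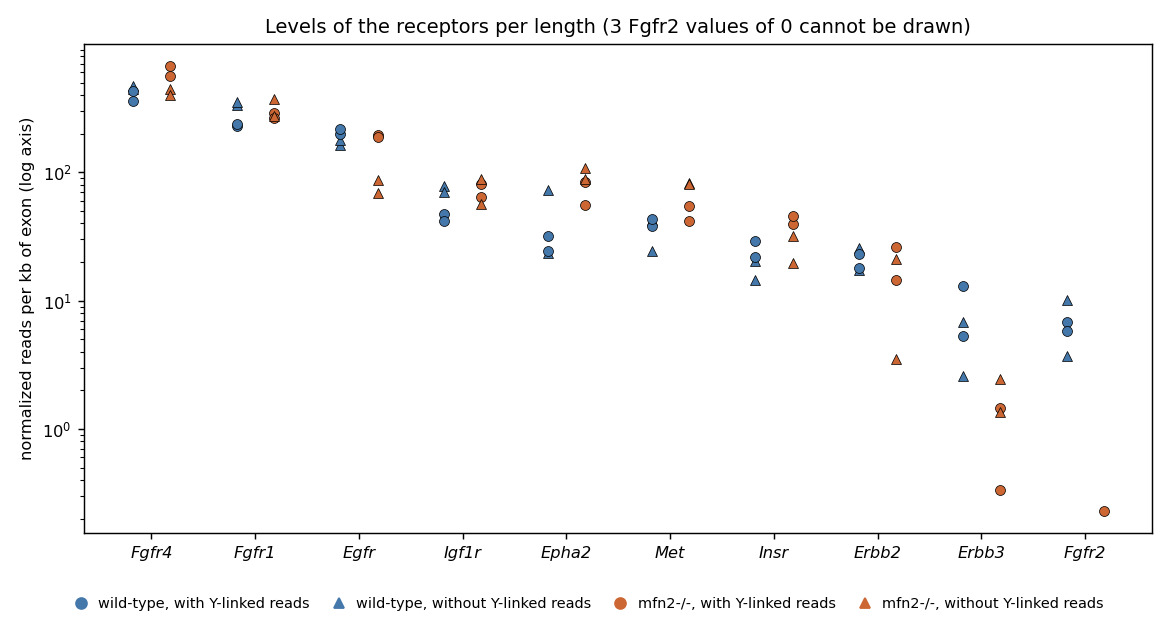
Level of each receptor in normalized reads per kb of exon (log axis), ordered by the wild-type mean, with each of the 8 libraries as a point. Fgfr4 and Fgfr1 lead in both groups, Egfr follows in wild-type libraries but overlaps Epha2, Igf1r and Met in mfn2-/- libraries, and Erbb3 and Fgfr2 are lowest, with 3 mfn2-/- values of Fgfr2 at 0 that a log axis cannot show.

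Other receptors and the genes around them were taken from lists written for each role. Each list is described by its counts beside the 10.4% called among all genes tested. The lists were chosen with earlier results of these data known, so their counts do not test them against that share. Of 30 other receptor tyrosine kinases tested, 6 fell, none rose, and the median log2 change was -1.10. Of the 6, Ephb2 and Epha7 had passed the filter on low values only through the wild-type group. Pdgfra, a fibroadipogenic marker itself, was 2531 ± 695 normalized counts (SD, n = 4) in wild-type and 31.9 ± 26.5 in mfn2-/- ASCs (limma adjusted p = 0.000405). Pdgfrb, of mural and mesenchymal cells, was 583 ± 60.9 and 73.8 ± 16.1 (limma adjusted p = 2.03e-05). The collagen receptor Ddr2 had a log2 change of -1.11 (limma adjusted p = 0.0151) and the BDNF receptor Ntrk2 one of -3.72 (0.00843). The ephrin receptors Ephb2 and Epha7 were 48.2 to 141 and 11.4 to 141 normalized counts in wild-type libraries and at most 2.00 and 0.79 in mfn2-/- libraries. The 2 most abundant of those not called were Axl (log2 change -0.31, limma adjusted p = 0.323) and the agrin receptor component Musk (0.79, 0.0714).

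Ligand transcripts were sparse in these sorted cells, with 11 of 26 in the table tested, and Hgf was not among them. Igf1, the ligand of Igf1r, was the 1 that fell, from 1847, 2742, 4427 and 4707 normalized counts in wild-type to 460, 388, 188 and 139 in mfn2-/- libraries. The groups did not overlap, with a change of -3.61 ± 0.39 (SE) on the log2 scale and a limma adjusted p of 5.95e-05. Igf2 (-0.05, limma adjusted p = 0.897) and the Egfr ligand Hbegf (-0.07, limma adjusted p = 0.957) did not pass, and the sign of each depended on the libraries or scaling used. Of 8 enzymes that process ligands, 1 rose, the metalloprotease Adam9 (log2 change 0.85, limma adjusted p = 0.00846), while the protease Plau (-0.44, limma adjusted p = 0.29) and the convertase Furin (0.45, limma adjusted p = 0.266) did not pass.

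Among 25 co-receptors and adaptors tested, 2 rose and 4 fell, with a median log2 change of -0.04. Sdc4, a syndecan that presents FGF and marks muscle stem cells, rose from 4271 ± 1529 to 17473 ± 3953 normalized counts (SD, n = 4; limma adjusted p = 0.000317). Cd44, a hyaluronan receptor whose variants assist Met, had a log2 change of 1.00 (limma adjusted p = 0.0347) and lost the call without wild-type replicate 1, 3 or 4 or mfn2-/- replicate 2, 3 or 4 (adjusted p 0.0547 to 0.109). Hspg2, the basement membrane proteoglycan perlecan, went from 13773 ± 236 to 3801 ± 628 normalized counts (SD, n = 4; limma adjusted p = 3.15e-05), and the glypicans Gpc3 (log2 change -5.84, limma adjusted p = 0.00016) and Gpc6 (-2.91, 0.00444) and the syndecan Sdc3 (-2.03, 0.000603) fell with it. Igf2r, which clears IGF-2, was 3115 ± 99.3 and 3030 ± 128 normalized counts (limma adjusted p = 0.899) with overlapping groups, and the insulin receptor substrate Irs2 did not pass (log2 change 0.69, limma adjusted p = 0.196).

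**Figure D4:**
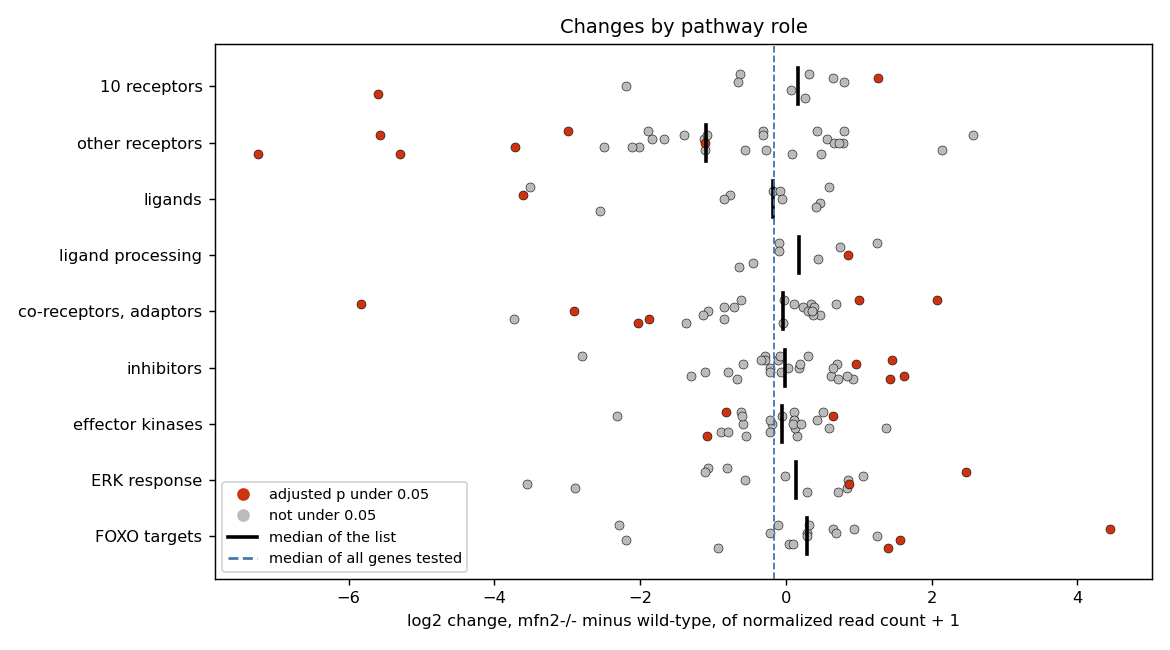
Log2 change (mfn2-/- minus wild-type, of normalized count + 1) of every tested gene in each role list, red where the adjusted p was under 0.05, with the list median as a black bar and the median of all genes tested as a dashed line. The other receptors sit lowest, with a median of -1.10, and the 4 inhibitors in red all lie above 0.

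Of 28 inhibitors of receptor signaling, 4 rose and none fell, and their median log2 change was -0.01. Errfi1, which binds and blocks the kinase domain of EGFR, read 4417, 5123, 2217 and 2360 normalized counts in wild-type and 12518, 11901, 7616 and 9245 in mfn2-/- libraries. Its log2 change was 1.62 (SE 0.29, limma adjusted p = 0.00304), being 2.42 with Y-linked reads and 0.82 without. Spred1, a brake on RAS, rose by 1.45 on the log2 scale (SE 0.20, limma adjusted p = 0.000583), with all mfn2-/- libraries at 2051 or more and all wild-type at 1186 or less. Lrig1, which sends ErbB receptors and MET for degradation, rose by 0.97 (limma adjusted p = 0.0139, but 0.0505 without wild-type replicate 3), and the phosphatase Ptpn2 rose by 1.43 (limma adjusted p = 0.00781). Socs3 (log2 change 0.30, limma adjusted p = 0.596) and the insulin receptor adaptor Grb10 (-0.67, limma adjusted p = 0.106) did not pass. Without mfn2-/- replicate 4, 8 inhibitors were called.

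Of 25 genes of the RAS, ERK, PI3K and AKT cascades, 1 rose and 2 fell. The PI3K regulatory subunits Pik3r1 (log2 change -1.08, limma adjusted p = 0.0206) and Pik3r2 (-0.82, 0.0348) fell, and Akt2, the AKT form tied to insulin action, rose by 0.64 (limma adjusted p = 0.0457). All 3 calls were lost without wild-type replicate 3 or 4 or mfn2-/- replicate 3. Akt2 and Pik3r2 each lost the call in 6 of 8 analyses with 1 library left out (adjusted p 0.0666 to 0.134 for Akt2 without wild-type replicate 1, 3 or 4 or mfn2-/- replicate 1, 2 or 3, and 0.0506 to 0.112 for Pik3r2 without wild-type replicate 2, 3 or 4 or mfn2-/- replicate 1, 2 or 3), and Pik3r1 in the 3 just named (0.0562 to 0.0637). The transcription factor Foxo1 (log2 change -0.22, limma adjusted p = 0.621) did not pass.

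Transcripts that receptor signaling controls come next. Of 14 genes that ERK induces, 2 rose and none fell. The AP-1 subunit Fosl1 was 141, 199, 42.5 and 26.2 normalized counts in wild-type and 414, 280, 401 and 671 in mfn2-/- libraries (log2 change 2.47, limma adjusted p = 0.0139). Phlda1, a pleckstrin domain protein induced by ERK, rose by 0.86 (limma adjusted p = 0.0128, but 0.0505 without wild-type replicate 3). The immediate early genes did not pass: Egr1 had a log2 change of -0.01 (limma adjusted p = 0.989), made of 0.96 with Y-linked reads and -0.98 without, and Fos one of -0.81 (limma adjusted p = 0.0813), made of -0.19 and -1.42. Fos groups did not overlap, at 16316 to 22224 normalized counts in wild-type and 7988 to 16125 in mfn2-/- libraries. It was called by DESeq2 (adjusted p = 0.0267), and by limma with a Y-linked term (0.0453), with a replicate block (0.0374) or without mfn2-/- replicate 1 (0.0488). Without mfn2-/- replicate 4, 4 of the 14 were called, and without wild-type replicate 3 only 1.

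Of 17 targets of FOXO factors, which insulin and IGF signaling through AKT keeps out of the nucleus, 3 rose and none fell. The list includes Insr, Igf1r and Erbb3, none of them called. Pdk4, a kinase that shuts off pyruvate dehydrogenase, rose by 1.56 (SE 0.22, limma adjusted p = 0.000715). Gadd45a, a stress and growth arrest gene, rose by 1.40 (limma adjusted p = 0.0151, but 0.0541 without mfn2-/- replicate 2). Trim63, a muscle atrophy ubiquitin ligase, had 0 reads in every wild-type library and 7.33, 8.69, 18.4 and 143 normalized counts in mfn2-/- libraries (limma adjusted p = 0.0339), a call lost in each of the 7 analyses with 1 library left out that could test it (adjusted p 0.0527 to 0.0861). It had passed the filter on low values only through the mfn2-/- group, most of whose count came from replicate 4. With 1 library left out, 1 or 2 of the 17 were called, the 1 without mfn2-/- replicate 2. Txnip (log2 change -0.22, limma adjusted p = 0.614) and Irs2 did not pass.

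The receptors' changes stood beside a shift in cell type markers. Of the 14 fibroadipogenic markers 12 fell and of the 9 tenocyte markers all 9 fell, 3 and 6 of these having passed the filter on low values only through the wild-type group, while 4 of 12 muscle stem cell markers rose and 1 fell. Of 8 mural markers tested, 3 fell and 1 rose (sums of 4181 to 5307 in wild-type and 2575 to 4221 in mfn2-/- libraries), and 2 of 7 glial markers fell. The summed endothelial markers (985 to 1453 and 1158 to 1745) and macrophage markers (32.7 to 118 and 85.3 to 158) overlapped between the groups. No marker was at 0 in all libraries, and Fcgr1 of the macrophage list had at most 3 reads in each. Every gene called as lower, Fgfr2 and Igf1 among them, fell where the fibroadipogenic and tenocyte marker sums were lower, since both contrasts compare the same 2 groups. Such a match is therefore not particular to any of these genes. Pdgfra, Pdgfrb and Sdc4 are themselves members of the fibroadipogenic, mural and muscle stem cell marker lists. The part of these cells in the results was not tested.

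**Figure D5:**
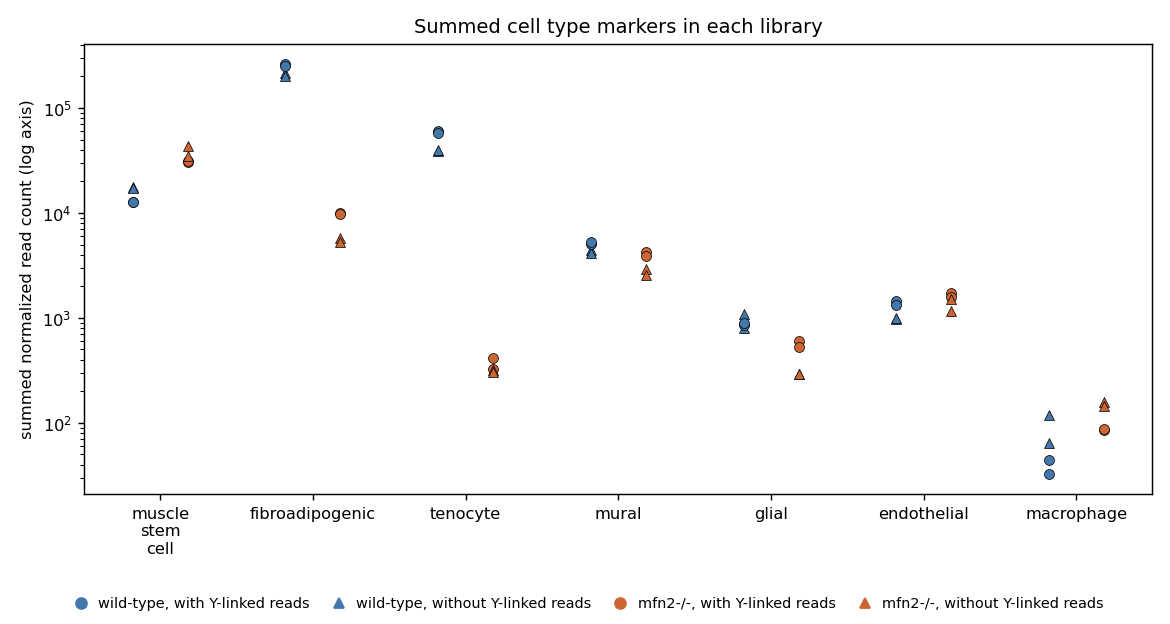
Summed normalized read counts of the markers of each cell type (log axis) in each of the 8 libraries. The fibroadipogenic sums are at least 202321 in wild-type and at most 9900 in mfn2-/- libraries, whereas the muscle stem cell sums are higher in mfn2-/- libraries through Sdc4 and Des, and overlap without these 2.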

How the data were processed

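Libraries of sorted ASCs were made with the SMARTer stranded pico kit. The authors deposited a linear signal for every gene and library, namely read counts divided by a size factor. The submitters' processing notes name Trim Galore, HISAT2, featureCounts, DESeq2 and build mm9, without versions. Each value was a whole multiple of 1 step per library (100% within 0.01), so whole reads were recovered, 1880464 to 7508215 per library. Weak genes are least precise in wild-type replicate 1 and mfn2-/- replicate 4. The interval of the Fgfr2 read ratio covers counting error only, since copies from amplification cannot be told from separate molecules. The intervals of log2 changes come from limma and rest on the spread between libraries.

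Groups and replicate numbers came from sample titles. Genes with a mean of at least 10 (11754) were tested in R 4.3.3 with limma 3.58.1 on log2(value + 1) with an intensity trend, two-sided, with Benjamini-Hochberg adjustment over all genes. Single values were also compared by two-sided exact permutation over 70 arrangements, whose smallest p is 0.0286. edgeR 4.0.16 (quasi-likelihood) and DESeq2 1.42.0 were run on recovered reads. Other alternatives changed the pseudocount, filter, scaling, trend, library weights, threshold, block and Y-linked term, or left out 1 library. The code was tested on simulated data. Exon lengths are unions from GENCODE M21 (GRCm38), promoters are from RefSeq, and Python 3.11.15 drew the figures.

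The members and lists were chosen with earlier results of these data known. Named genes were the 10 receptors and, per list, members past the threshold (up to 6) and the 2 most abundant not past it, of which 1 is not reported here. Some genes sit in 2 lists. The mouse symbol Pdk1, kept in the cascade list as written, is a pyruvate dehydrogenase kinase and was not called.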

Additional observations from a re-analysis of the deposited data

Results flagged for a closer look

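In 7 of 98 groups of 4 libraries, 1 library lay apart from the others by more than Dixon's 95% critical value, where chance gives about 1 in 20, or 4.9. None was a receptor in the list of 10. Axl in mfn2-/- replicate 3 was 1614 normalized counts against 1079 to 1148 in the others of its group. Wild-type replicate 2 was the highest of its group for Igf2 (755, others 501 to 532), Spred1 (1186, others 721 to 747) and Socs3 (3934, others 3153 to 3250). Adam9 in wild-type replicate 1 was 700.5 against 806 to 814. Gpc6 in mfn2-/- replicate 2 was 46.6 against 17.7 to 20.2, and Trim63 in mfn2-/- replicate 4 was 143 against 7.33 to 18.4.

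For 6 of 51 genes tested, none of them among the 10 receptors, the log2 change differed between libraries with and without Y-linked reads (limma interaction, adjusted over all 11754 genes, of which 1.47% passed). The change with minus that without was 1.94 for Egr1 (adjusted p = 0.00163), 1.89 for Irs2 (0.0059), 1.60 for Errfi1 (0.00287), 1.49 for Socs3 (0.0085), 1.23 for Fos (0.00436) and 1.05 for Pdk4 (0.041). The Y-linked reads coincide with replicates 3 and 4 in wild-type and 1 and 2 in mfn2-/-, and the 2 cannot be told apart.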

How the results depend on the processing

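The 2 receptor calls, Fgfr2 and Epha2, became 1 with a pseudocount of 0.1, no filter, a mean of at least 50 (which dropped Fgfr2 and Erbb3), no intensity trend, edgeR or an adjusted p under 0.01, became 6 with library weights, and ranged from 1 to 2 when 1 library was left out. The 1217 genes called became 633 without the intensity trend (17.9% of them higher, against 38.5%), 3037 with library weights and 498 at an adjusted p under 0.01, and with 1 library left out lay between 671 (wild-type replicate 3 removed) and 1331 (mfn2-/- replicate 4 removed). Library weights called 15 other receptors (6 in the main analysis), 15 co-receptors and adaptors (6), 12 inhibitors (4), 9 cascade genes (3), 9 ERK response genes (2), 8 FOXO targets (3), 2 ligands (1) and 2 processing enzymes (1). Without the trend these became 5, 5, 1, 0, 0, 2, 1 and 0, and edgeR gave 7, 7, 4, 1, 2, 3, 1 and 1. With 1 library left out they ranged over 6 to 9, 5 to 7, 3 to 8, 0 to 3, 1 to 4, 1 to 2, 1 and 1. DESeq2 called 4 ERK response genes and 2 ligands, a Y-linked term 8 inhibitors, 5 ERK response genes and 2 ligands, a pseudocount of 10 called 2 ligands, and no filter 1 cascade gene. Quantile normalization moved the median log2 change of all genes from -0.16 to 0.07. Signs turned for weak changes only. Fgfr1 became -0.0043 with quantile normalization and ranged from -0.034 to 0.18 with 1 library left out, as Igf2 did from -0.11 to 0.086, Hbegf from -0.41 to 0.56 and Egr1 from -0.31 to 0.33. Hbegf also became 0.30 with quantile normalization, 0.73 with library weights, 0.20 with edgeR and 0.091 with DESeq2. Igf2r became 0.0065 with equal totals and 0.028 with edgeR, and Egr1 0.035 with equal totals, 0.62 with library weights, 0.29 with edgeR and 0.18 with DESeq2. The cause was not tested. Over all alternatives, receptor changes kept direction and side of the threshold in 179 cases, passed newly in 4, no longer passed in 11 and reversed in 4. The replicate numbers did not pair the samples (correlations of same-numbered deviations -0.0347, -0.0532, 0.0383 and -0.111). With a replicate block, 1 receptor (Fgfr2), 1 cascade gene, 4 ERK response genes and 1043 genes in all were called, and samples did not each correlate best with their own number.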
